A study of Homo sapiens with 6 samples.

Results

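OCI-AML3 is an established human line of acute myeloid leukaemia, and the 3 arrays described here hold its RNA after 24 h in DMSO, the solvent given to control cultures. The series holds 6 arrays, the other 3 being of the same line given the histone deacetylase inhibitor Vorinostat, and those were left aside, so nothing below is a comparison of treatments. The cells were grown in RPMI medium with fetal calf serum and antibiotics, and total RNA was copied from an oligo(dT) primer, labelled with biotin and hybridised to Affymetrix HG-U133 Plus 2.0 arrays. The results are those of 1 line carried in culture. Whether replicates 1, 2 and 3 were separate cultures is not stated in the sources used, so the spread between them may be technical. A value is the log2 signal of a probe set, a group of short probes against 1 stretch of transcript. Of 54613 probe sets that are not controls, 41091 name 1 gene, and each of 19775 genes was represented by whichever of its probe sets averaged highest across the 3 arrays.

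As background, OCI-AML3 carries mutations of NPM1 and DNMT3A, which are frequent in this leukaemia, and its cells resemble precursors of granulocytes and monocytes. Such precursors are made under transcription factors of the C/EBP, PU.1, IRF and MYB families. The granules of a neutrophil are filled in order, first with primary granule proteases such as elastase and cathepsin G, and at later stages with secondary granule proteins such as lactoferrin. A blast of myeloid leukaemia stops somewhere along this path, and its surface carries receptors used in diagnosis.

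Genes were placed in classes by level. A gene was called high when it lay above log2 5 on all 3 arrays, and 414 of 19775 genes did so, which is 2.09% of them. A gene was called low when it lay below log2 3 on all 3 arrays, which held for 13877 genes or 70.2%. A further 1435 genes, 7.26%, were array-dependent, that is above log2 5 on one array and below log2 3 on another, and the remaining 4049 fell in between. These levels describe signal and not copies of RNA, since probe sets differ in how well they bind. The members nearest the level of 5 were SMIM30, at 5.28, 5.02 and 5.01 on replicates 1, 2 and 3, just inside it, and NCOA4, at 6.47, 5.09 and 5.0, just outside.

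The 3 arrays were far from alike, and replicate 1 stood apart. It held 2624 genes above log2 5, against 737 on replicate 2 and 468 on replicate 3. Of the 468 genes above log2 5 on replicate 3, 88.5% were also above it on both other arrays, whereas of the 2624 on replicate 1 only 15.8% were. Among the 414 high genes, 386 had their highest value on replicate 1, and the median gene lay 1.83 lower on replicate 2 and 2.07 lower on replicate 3, on the log2 scale. The median over all genes did not move with this, at 1.74, 1.80 and 1.79. Over all genes the Spearman correlation of levels was 0.672 between replicates 1 and 2, 0.524 between 1 and 3, and 0.647 between 2 and 3, as a description across genes that share arrays and are not independent. Within the 414 high genes it was 0.730, 0.661 and 0.837.

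**Figure D1:**
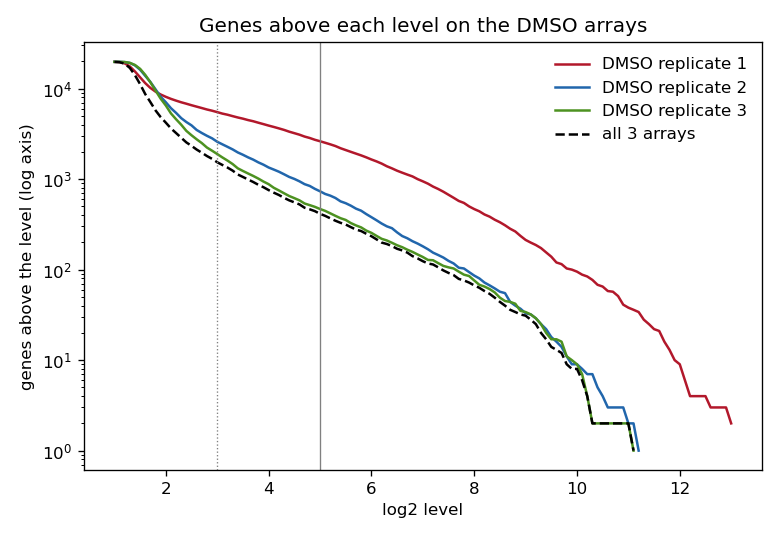
Number of genes (log axis) above each log2 level on each DMSO array and on all 3 (dashed). The solid grey line marks log2 5 and the dotted line log2 3. At log2 5 the array of replicate 1 held 2624 genes, those of replicates 2 and 3 held 737 and 468, and 414 passed on all 3.

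Control probe sets along the GAPDH and ACTB transcripts showed a further difference. Labelling began at the 3′ end, and the distance between the 3′ and the 5′ probe sets is the loss of signal along the transcript. What set this distance was not tested. For GAPDH, the 3′ set lay 0.99 above the 5′ set on replicate 1 and 1.02 on replicate 2 but 4.02 on replicate 3, on the log2 scale. For ACTB the distance was 4.51, 2.77 and 4.04, so it was largest on replicate 1 and not, as for GAPDH, on replicate 3. The 18 probe sets of the hybridisation spikes bioB, bioC, bioD and cre lay below log2 3 on every array, with a highest value of 2.90, so they give no ladder to set the arrays on one scale. The part of these differences in the classes below was not tested. Counts without an array stand beside results that it moved most.

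**Figure D2:**
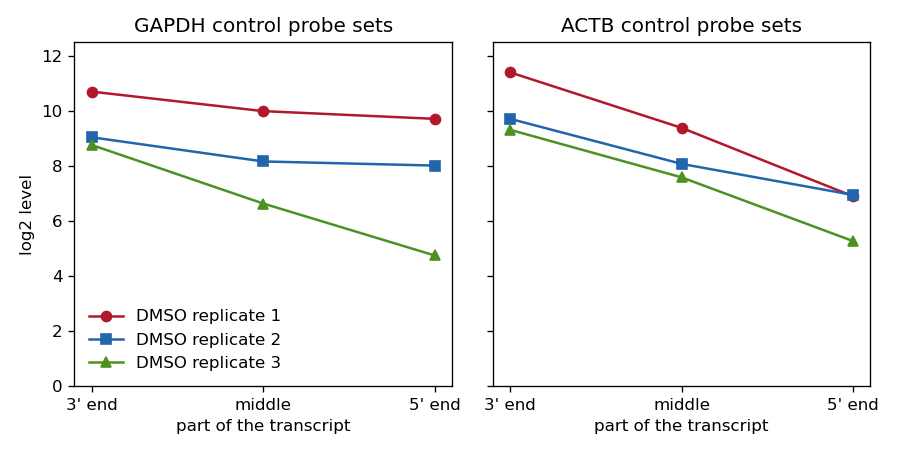
Log2 level of the GAPDH and ACTB control probe sets at the 3′ end, the middle and the 5′ end on the 3 DMSO arrays. From the 3′ to the 5′ end GAPDH fell from 8.77 to 4.75 on replicate 3, and from 10.71 to 9.72 on replicate 1.

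The top of the ranking was held by the machinery of protein synthesis. EEF1A1, the elongation factor that brings aminoacyl-tRNA to the ribosome, lay at 12.55, 11.27 and 11.11 and was rank 4, 1 and 1 on replicates 1, 2 and 3. RPL39 lay at 12.15, 11.15 and 11.10 and RPL41 at 12.20, 10.35 and 10.28, both small proteins of the large ribosomal subunit. Of the 30 genes with the highest mean rank, 19 code for ribosomal proteins, these 2 with RPS23, RPL32, RPS24, RPL7, RPL37A, RPL37, RPL30, RPS15A, RPS27, RPS16, RPS18, RPL31, RPS19, RPL34, RPL38, RPL14 and RPL19. The order within them differed by array, as RPL7 was rank 2, 16 and 16 and RPS18 rank 9, 33 and 27. The arrays shared 19 of their top 30 genes and 65 of their top 100.

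Most ribosomal protein genes that could be measured were high. Of the large subunit list, 28 of 32 measured members were high, and of the small subunit list 20 of 21, against 2.09% of all genes. On replicates 2 and 3 alone the counts were again 28 and 20. A gene high on all 3 arrays passes on fewer as well, so dropping an array can only add genes. The lowest of those that passed were RPL11, at 9.80, 7.45 and 6.11, and FAU, at 9.10, 6.33 and 6.51. The others were RPL8, at 10.06, 7.83 and 4.67, RPL27A, at 5.39, 3.94 and 3.32, RPLP2, at 2.55, 3.38 and 2.80, RPL36A, at 1.90, 1.82 and 2.04, and RPS9, at 8.90, 3.94 and 4.29. A further 15 large and 11 small subunit genes had no probe set of their own and were not analysed here. Ribosomal proteins have many processed pseudogenes, so a level can hold signal of near-identical copies.

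The sequence at the starts of these genes was read as a feature that the level did not use. The mRNAs of ribosomal proteins and of some translation factors are known to begin with a run of pyrimidines (C or T), through which their translation is controlled. The RefSeq promoter table on GRCh38.p14, which runs from 250 bases before to 50 after each start, held a start for 43 of the 48 high ribosomal protein genes. These genes had 50 starts in the table, and 35 of them, 70.0%, lay inside a run of 5 or more C or T on the strand of the gene, against 9.60% of all 35116 starts. The high genes of the nuclear genome, of which 329 of 409 were in the table, had 495 starts, and 21.0% lay in such a run. Those other than ribosomal protein genes had 445 starts, of which 15.5% did. The starts below are those of 6 of the highest-ranked genes with 1 start in the table, and of CFL1, the actin-severing protein cofilin, which ranked among them and had no such run. Each line holds 30 bases before the start and 15 from it on, 5′ to 3′, and capitals mark the pyrimidine run across the start, which is base 31.
EEF1A1 (chr6:73521018-73521062, minus strand): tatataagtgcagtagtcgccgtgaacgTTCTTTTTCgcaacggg
RPL41 (chr12:56116603-56116647, plus strand): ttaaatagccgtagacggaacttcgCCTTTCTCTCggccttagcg
RPS23 (chr5:82278340-82278384, minus strand): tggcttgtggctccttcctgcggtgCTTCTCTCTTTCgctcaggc
RPS16 (chr19:39435935-39435979, minus strand): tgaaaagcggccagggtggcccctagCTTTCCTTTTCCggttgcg
RPS18 (chr6:33272045-33272089, plus strand): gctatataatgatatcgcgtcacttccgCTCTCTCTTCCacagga
RPL31 (chr2:101002259-101002303, plus strand): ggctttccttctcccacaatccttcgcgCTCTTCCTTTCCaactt
CFL1 (chr11:65858166-65858210, minus strand): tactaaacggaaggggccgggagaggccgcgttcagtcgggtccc
The runs in these genes were 9 bases for EEF1A1, 10 for RPL41, 12 for RPS23, RPS16 and RPL31, and 11 for RPS18. They describe the DNA at the annotated start, and no start was measured here.

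Of the translation factors 10 of 36 measured members were high, 27.8% against 2.09% of all genes. On replicate 1, 31 lay above log2 5, against 2624 of all 19775 genes. On replicates 1 and 2 alone 17 passed, where the share over all genes was 3.5%. After EEF1A1, those whose lowest of 3 values was highest were TPT1, a protein that binds the elongation factor, at 11.24, 8.67 and 9.91, NACA, which binds new peptides at the ribosome, at 10.90, 8.56 and 8.86, and EIF3H, a subunit of the initiation factor eIF3, at 9.74, 6.99 and 6.92. The elongation factor EEF2 lay at 10.60, 7.68 and 6.55 and EIF3E at 9.98, 6.64 and 6.37. The list also held 12 array-dependent members, of which EIF3L, EIF4A3 and EIF3D had the widest ranges, and EIF3L went from 8.85 to 2.03. Of 77 mitochondrial ribosomal protein genes, a family picked after values were seen, 2 were high, 2.6% and so near the share over all genes.

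Genes of the mitochondrial genome ranked beside the ribosomal ones. Of 7 measured, 5 were high, namely those for cytochrome c oxidase subunits I and II, for ATP synthase subunit 6 and for complex I subunits 2 and 4. Subunit II of the oxidase, named COX2 in the gene table and distinct from the cyclooxygenase gene of that nickname, lay at 13.76, 10.60 and 10.11 and was rank 1, 4 and 7. Subunit 4 of complex I, ND4, lay at 13.00, 9.90 and 9.76. Nuclear partners were counted by symbol after their values had been seen. High were 10 of 19 ATP synthase subunits, 3 of 6 subunits of the cytochrome bc1 complex, 9 of 35 subunits of complex I and 5 of 18 of cytochrome c oxidase. The match by symbol missed NDUFAB1, also a subunit of complex I, which was high at 9.34, 6.47 and 6.07. The share over all genes was 2.09%. Of 18 citric acid cycle enzymes 2 were high, 11.1% against 2.09% of all genes. On replicate 1, 12 lay above log2 5, against 2624 of all 19775 genes. The high ones were MDH2 at 7.78, 6.42 and 6.47 and SDHC at 6.66, 6.13 and 5.61 (4.83, 6.68 and 6.83 after quantile normalisation).

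Glycolysis was among the lists with the largest share of high members. Of 18 enzymes 9 were high, and the count stayed 9 on replicates 2 and 3 alone. GAPDH lay at 11.21, 8.99 and 8.53, and its other 2 probe sets lay between 8.19 and 11.06 over the 3 arrays. Both lactate dehydrogenase subunits were high, LDHB at 10.97, 8.33 and 8.5 and LDHA at 10.95, 8.24 and 8.45, as were PGAM1, PGK1, TPI1, PKM and ALDOA. HK1, the hexokinase of most tissues, lay at 5.64, 5.97 and 5.89 and at 3.98, 6.5 and 7.08 after quantile normalisation, whereas HK2, the isoform raised in many tumours, lay at 4.29, 2.16 and 1.93. HK3, the myeloid isoform of the enzyme, was low on every array, with a highest value of 1.99.

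NPM1 led the genes of the nucleolus and of leukaemia. Its product nucleophosmin is a nucleolar chaperone for ribosome assembly, and the mutation carried by OCI-AML3 sends it to the cytoplasm. It lay at 10.90, 9.75 and 9.77, a mean of 10.14 ± 0.66 (SD, n = 3), and was rank 42, 13 and 14. The array does not tell the mutant from the normal transcript. Its other 2 probe sets lay at 9.85, 5.55 and 5.00, and at 9.35, 6.78 and 4.82, so they fell further on replicates 2 and 3. Among 16 nucleolar genes NCL, nucleolin, was the other high one, at 9.59, 6.43 and 6.41. FBL, the methyltransferase fibrillarin, NOP58, its partner, and POLR1B, a subunit of RNA polymerase I, were array-dependent, while UBTF, a factor of that polymerase, and CDKN2A were low.

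Chaperones and proteasome subunits lay mostly above log2 5 on replicate 1, 23 of 26 and 16 of 16, against 2624 of all 19775 genes. HSP90AA1, the inducible form of HSP90, lay at 11.89, 10.50 and 10.17, ranks 11, 5 and 5, and HSP90AB1 at 10.29, 8.33 and 7.99. Of the chaperone genes 8 were high, 30.8% against 2.09% of all genes, with HSPD1, CCT4, P4HB and CANX following. No chaperone was low on all 3 arrays, where the share over all genes was 70.2%. On replicates 2 and 3 alone 5 lay below log2 3, where that share was 85.3%. Of the proteasome core subunits 2 were high, PSMB4 at 9.87, 8.28 and 7.48 and PSMB1 at 9.29, 7.18 and 7.84, which became 4 without replicate 3. Of the others 11 were array-dependent, and PSMA3 for instance lay at 8.45, 2.60 and 2.22.

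The actin skeleton gave 9 high genes of 23, 39.1% against 2.09% of all genes. CFL1 lay at 10.79, 10.38 and 10.21 and ACTB at 11.66, 10.97 and 9.42. RAC2, the small GTPase of blood cells that acts on the neutrophil oxidase, lay at 9.63, 7.87 and 7.97. ACTR3, TMSB4X and VIM, the intermediate filament vimentin, followed at 10.10, 7.81 and 8.20, 10.05, 8.49 and 7.61 and 9.72, 7.42 and 7.28. TUBA1C and PPIA, the tubulin and the cyclophilin in the top 30, lay at 10.89, 9.48 and 9.17 and 10.92, 9.28 and 9.18.

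**Figure D3:**
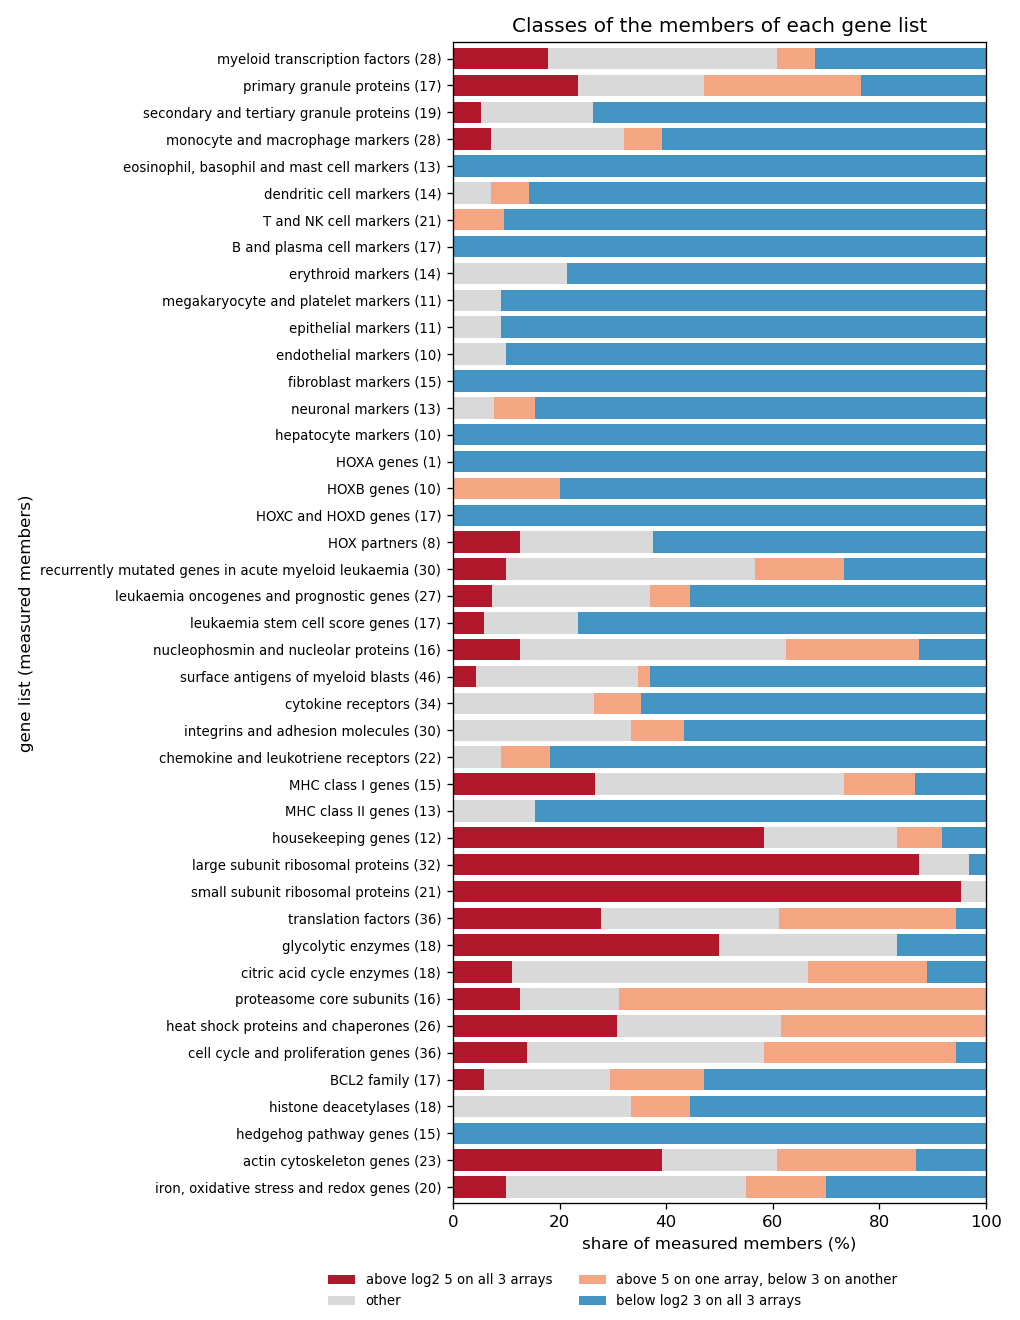
Share of the measured members of each of 43 gene lists (member count in brackets) that were high, low, array-dependent or neither on the DMSO arrays. The ribosomal lists were high for 28 of 32 and 20 of 21 members, while the eosinophil, B cell, fibroblast, hepatocyte and hedgehog lists were low throughout.

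Myeloid transcription factors held 5 high genes among 28 measured, 17.9% against 2.09% of all genes. No further member passed on replicates 2 and 3 alone. IRF8, which steers precursors towards monocytes and dendritic cells, was the highest, at 9.86, 7.65 and 7.04. LMO2, an adaptor of stem and progenitor cells, lay at 8.40, 5.68 and 6.06, and its partner LYL1 at 5.66, 5.64 and 5.14. MYC lay at 6.86, 5.30 and 5.72 and MYB, required by progenitors to divide, at 6.56, 5.39 and 5.11. The second probe sets of LMO2 and MYB reached at most 1.79 and 2.23. With the level set at 6 in place of 5, IRF8 was the 1 that passed. After quantile normalisation of the arrays LYL1 and MYB were no longer high, LYL1 at 3.99, 6.15 and 6.42 and MYB at 4.74, 5.89 and 6.39. CEBPA, which opens the granulocyte programme, passed on replicates 1 and 2 but not 3, at 7.55, 5.59 and 3.36. SPI1, the gene of PU.1, was low, at 2.71, 1.90 and 1.99, read by its only probe set. CEBPE, the factor of late granulocyte stages, was low too, as were STAT5A, ERG, EGR1, FOS and JUNB. Of the 28, 9 were low, 32.1% against 70.2% of all genes. Without replicate 1 this rose to 15, where the share over all genes was 85.3%. GFI1 and ZEB2 were array-dependent, at 6.14, 2.30 and 2.46 and 5.12, 2.30 and 1.80.

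The primary granule was represented by a part of its genes. SRGN, the proteoglycan that packs granule proteases, lay at 11.81, 8.41 and 9.48 and was rank 13, 62 and 18. CTSG, cathepsin G, lay at 9.76, 7.90 and 7.90 and ELANE, neutrophil elastase, at 8.84, 7.0 and 6.49, each read by a single probe set. MGST1, a glutathione transferase placed with this list, lay at 9.55, 7.17 and 6.49. These 4 of 17 measured members were high, 23.5% against 2.09% of all genes. Without replicate 1 no further member passed, and by definition none can drop out. RNASE2 and LYZ, lysozyme, lay above log2 5 on replicate 1 and lower elsewhere, at 8.62, 5.88 and 4.67 and 8.69, 3.97 and 3.29. AZU1 and PRTN3, which lie next to ELANE in the genome, were array-dependent, at 6.31, 1.94 and 2.06 and 5.70, 2.37 and 1.66, like SERPINB1 and GUSB. MPO, the peroxidase that defines the myeloid granule in diagnosis, was low, at 1.91, 2.51 and 2.76, and its second probe set reached at most 1.97. After quantile normalisation it was no longer low, at 1.88, 2.96 and 3.71. DEFA4, CTSD and SERPINB10 were low as well.

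Of 19 secondary and tertiary granule genes 14 were low, 73.7%, a share near the 70.2% of all genes. Among them were LTF (lactoferrin), CAMP, LCN2, MMP8, MMP9 and CEACAM8. High was 1, 5.26% against 2.09% of all genes. This was NCF4, which codes for a cytosolic subunit of the phagocyte oxidase and lay at 7.46, 5.87 and 6.47. CYBA, the small membrane subunit of the oxidase, lay at 4.64, 4.63 and 3.35. TCN1, a vitamin B12 binder of secondary granules, reached log2 4.23 on replicate 1 and 2.07 and 1.84 on the others.

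Of 28 measured monocyte and macrophage markers 17 were low, 60.7% against 70.2% of all genes. On replicates 2 and 3 alone 24 lay below log2 3, where the share over all genes was 85.3%. High were 2, 7.14% against 2.09%, namely AIF1, an actin-binding protein of macrophages, at 8.49, 6.96 and 6.33, and FCER1G, the signalling chain of Fc receptors, at 7.41, 6.60 and 6.19. The other probe sets of AIF1 lay lower, and 1 of its 4 reached at most 1.43. The second probe set of FCER1G lay at 5.67, 2.71 and 2.41. CD14, the coreceptor for lipopolysaccharide, lay at 1.5, 1.68 and 2.14. CSF1R, CD163, FCN1, S100A12, FCGR1A and CCR2 were low as well. S100A8 and MS4A7 were array-dependent, at 5.58, 2.23 and 1.75 and 6.22, 2.04 and 2.12.

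**Figure D4:**
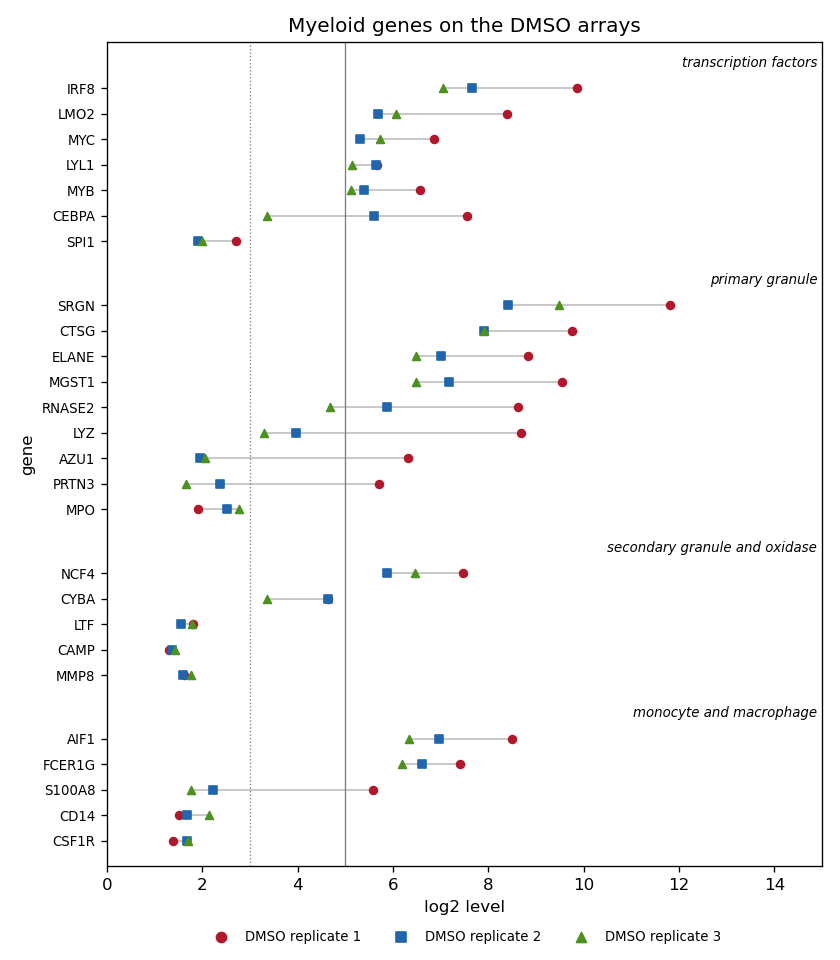
Log2 level of myeloid genes on the 3 DMSO arrays (1 marker per array, the grey bar spans them). The solid line marks log2 5 and the dotted line log2 3. IRF8, SRGN, CTSG and ELANE lay above 5 on every array, and SPI1, MPO, LTF, CD14 and CSF1R lay below 3 on every array.

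Further blood cell genes stood among the 414 and were chosen for mention after their values were seen. MS4A3, a membrane protein of granulocyte and monocyte progenitors, lay at 9.45, 7.28 and 8.05. PLAC8 lay at 9.53, 7.70 and 7.73, and CSTA, the protease inhibitor cystatin A, at 10.31, 7.28 and 7.70. LAPTM5, a lysosomal protein of leukocytes, lay at 9.94, 7.5 and 8.04, CLEC11A, a secreted growth factor for progenitors, at 7.83, 6.54 and 7.30, and HCLS1, LAT2 and PYCARD were high too. Each of these 8 genes had its highest value on replicate 1. TMEFF2, a membrane protein best known from brain and prostate, was the reverse, at 7.33, 6.91 and 8.89, highest on replicate 3. This was read by 1 of its 3 probe sets, and the other 2 lay below log2 3 on all 3 arrays. IRX3, a homeobox gene, lay at 10.52, 7.97 and 7.05, and BEX1 at 9.60, 7.01 and 6.90. Of 8 metallothioneins, the small proteins that bind zinc and copper, 5 were high, 62.5% against 2.09% of all genes. Their sequences are so similar, however, that 1 transcript may light several probe sets.

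Genes of other cell types served as a background. The 11 lists were for eosinophils and mast cells, dendritic, T and NK, B, erythroid, megakaryocyte, epithelial, endothelial, fibroblast, neuronal and liver cells. None of their 149 genes was high, where the share over all genes was 2.09%. Low were 137, 91.9% against 70.2% of all genes. Every measured marker was low for eosinophils, basophils and mast cells (13, such as PRG2, EPX and CLC), B and plasma cells (17, such as CD79A, MS4A1 and PAX5), fibroblasts (15, such as COL1A1, COL3A1 and DCN) and hepatocytes (10, such as ALB and APOA1). GATA1, KLF1, ALAS2 and HBB of the red cell line were low, and so were PF4, PPBP and GP9 of platelets, EPCAM and KRT8 of epithelium, CDH5 and TEK of endothelium, and CD3D, CD3E and CD2 of T cells. The exceptions were few. NCAM1, the CD56 antigen of NK cells, which leukaemic blasts can also carry, lay at 7.09, 4.10 and 2.97, TCF4 at 6.05, 4.0 and 1.79, LAT at 5.35, 3.16 and 2.56 and TUBB3 at 5.92, 4.27 and 2.68. All 4 were above log2 5 on replicate 1 alone. TFRC, the transferrin receptor of dividing cells as well as of erythroblasts, lay at 7.66, 4.69 and 5.82. Of 82 olfactory receptor genes, a family picked afterwards, none passed log2 3 on any array. Their pseudogenes were not counted, and 1 of them, OR7E104P, was high, at 5.56, 5.91 and 5.63. Of the keratins 46 of 48 genes were low.

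A low level was no proof of absence. TBP, the TATA-binding protein that every cell uses, was low at 2.97, 2.31 and 2.01. POLR2A, the large subunit of RNA polymerase II, lay at 4.33, 3.09 and 2.63. Of 12 housekeeping genes 7 were high, 58.3% against 2.09% of all genes, with B2M and YWHAZ among them, and GUSB was array-dependent. Of 502 zinc finger genes named ZNF none was high and 411 were low, 81.9% against 70.2% of all genes. On replicate 1, 15 lay above log2 5, against 2624 of all 19775 genes.

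Among 30 measured genes that are recurrently mutated in acute myeloid leukaemia, 3 were high, 10.0% against 2.09% of all genes. Beside NPM1 these were the splicing factors SF3B1, at 8.88, 6.06 and 5.85, and U2AF1, at 7.93, 6.10 and 5.09. Of the 4 probe sets of U2AF1 the other 3 lay below log2 3 on all 3 arrays. DNMT3A, the DNA methyltransferase mutated in this line, lay at 3.81, 1.77 and 2.02. FLT3 and KIT, receptor kinases of progenitors, were low, FLT3 at 1.87, 1.58 and 1.54 and KIT at 1.46, 1.81 and 2.09, as were TET2, JAK2, ZRSR2, BCORL1 and CSF3R. WT1, a marker of residual leukaemia, lay at 3.06, 1.46 and 1.33. The cohesin genes lay above log2 5 on replicate 1 and lower elsewhere, SMC3 at 7.22, 1.56 and 1.5, STAG2 at 6.84, 2.81 and 2.98 and SMC1A at 8.14, 4.64 and 5.24. IDH1 and DDX41 were array-dependent. Of the 30, 8 were low on all 3 arrays, 26.7% against 70.2% of all genes. On replicates 2 and 3 alone there were 20, where the share over all genes was 85.3%. RUNX1, NRAS and SRSF2 had no probe set of their own and were not analysed here.

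No HOX gene was high, but with so few measured and 2.09% of all genes high, a count of 0 is no result about them. HOXA9 and HOXA10, which are known for high expression in leukaemia with mutant NPM1, had no probe set naming them alone and were not analysed here. Of the HOXA list only HOXA2 was measured, and it was low. Of 10 HOXB genes 8 were low, HOXB3 lay at 5.18, 2.16 and 2.26 and HOXB8 at 2.93, 2.54 and 6.10, and the 17 measured HOXC and HOXD genes were all low. Among HOX partners PBX2 was high, at 5.20, 5.64 and 5.21, although its other 3 probe sets reached at most 1.88, and after quantile normalisation of the arrays no HOX partner was high. MEIS1, the partner of HOXA9, lay at 3.35, 1.72 and 1.70 and PBX3 at 4.36, 2.49 and 2.14, with log2 3 passed on replicate 1 alone.

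Of 27 oncogenes and prognostic genes 2 were high, 7.41% against 2.09% of all genes. Without replicate 3 there were 5, where the share over all genes was 3.5%. CCND3, cyclin D3, lay at 8.44, 8.18 and 7.71, a mean of 8.11 ± 0.37 (SD, n = 3), while its relatives CCND1 and CCND2 were low. The second probe set of CCND3 lay at 1.43, 1.44 and 1.46. MYC was the other high gene. CDK6, the kinase that D cyclins bind, lay at 8.96, 6.12 and 4.05, and BIRC5, a survival protein of dividing cells, at 7.02, 5.57 and 3.43. MECOM, MN1, BAALC, PRAME, MYCN and ERG were low. Of the 17 genes of a published stem cell score 1 was high, 5.88% against 2.09% of all genes. It was LAPTM4B, at 8.86, 6.86 and 6.06, of whose 4 probe sets 1 was high. Without replicate 3 there were 3 high genes of the score. Low were 13, 76.5% and so near the 70.2% of all genes, among them CD34, MMRN1, DPYSL3, NYNRIN, ARHGAP22 and ZBTB46.

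Of 46 measured surface antigens of myeloid blasts 2 were high, 4.35% against 2.09% of all genes, and 29 were low, 63.0% against 70.2%. Without replicate 2 the high ones numbered 4. CD63, a tetraspanin of granule and lysosome membranes, lay at 9.09, 7.02 and 5.74 and CD99 at 7.11, 6.08 and 6.09. The second probe set of CD99 lay at 3.21, 1.59 and 1.69. CD34, the antigen of stem cells, lay at 1.72, 1.5 and 1.51, and CD38 at 2.94, 1.99 and 2.09. IL3RA lay at 1.69, 1.66 and 1.86 and CLEC12A at 1.32, 1.30 and 1.80, both targets of antibodies against blasts. ANPEP, the CD13 antigen, and ITGAM, the CD11b antigen of maturing cells, were low, at 2.0, 1.71 and 1.81 and 1.74, 1.66 and 1.57. CD33 had no probe set of its own and was not analysed here.

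Other surface genes were neither high nor low. CD44, the hyaluronate receptor, lay at 6.53, 3.85 and 3.33. CD47, the signal that restrains phagocytes, was array-dependent, at 6.20, 4.76 and 2.15. CD93 was above log2 5 on replicates 1 and 3, at 5.59, 3.59 and 5.60. CD4, which monocytic cells carry, hardly moved between arrays, at 4.35, 4.32 and 4.23. PTPRC, the CD45 antigen of all leukocytes, lay at 7.80, 3.67 and 3.27.

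None of the receptors for cytokines and chemokines was high, where the share over all genes was 2.09%. Of 34 cytokine receptors 22 were low, 64.7% against 70.2% of all genes. Without replicate 1 there were 29, where the share over all genes was 85.3%. CSF3R, CSF1R, CSF2RA and IL3RA were low, and IL17RA was the highest, at 7.58, 4.94 and 4.24. TGFBR1, OSMR and IL10RB were array-dependent. Of 22 chemokine and leukotriene receptors 18 were low, 81.8% against 70.2% of all genes. CXCR4, which holds progenitors in the marrow, lay at 5.11, 4.40 and 2.62. CCR1 lay at 5.33, 2.67 and 2.11. Of 30 integrins and adhesion molecules 17 were low, 56.7% against 70.2% of all genes. Without replicate 1 there were 23, where the share over all genes was 85.3%. The low ones held ITGA1, ITGA2, ITGA3, ITGAL and ITGB3. ITGB2, the shared chain of the leukocyte integrins, lay at 6.58, 5.30 and 4.11, and ITGB1 at 6.85, 4.53 and 4.38.

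The MHC class I list held high genes. HLA-B lay at 9.44, 8.69 and 8.39, and B2M, its light chain, at 10.13, 8.67 and 8.20. HLA-C lay at 8.24, 6.78 and 6.10 and CANX, calnexin, at 10.12, 7.90 and 5.82. So 4 of 15 genes of the class I list were high, 26.7% against 2.09% of all genes. That list counts B2M, the chaperone calnexin and the loading genes with the HLA genes. Probe sets of HLA genes can also read their near-identical relatives. The loading genes were lower, TAPBP at 5.21, 3.68 and 3.37 and TAP1 at 3.42, 2.09 and 1.32, and ERAP1 and ERAP2 were low. None of 13 class II genes was high, but with 2.09% of all genes high a count of 0 is no result about them. Of the 13, 11 were low, 84.6% against 70.2% of all genes. HLA-DRA for instance lay at 1.67, 1.66 and 1.54, and the activator CIITA was low too. CD74, the invariant chain, lay at 4.99, 3.92 and 2.29.

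**Figure D5:**
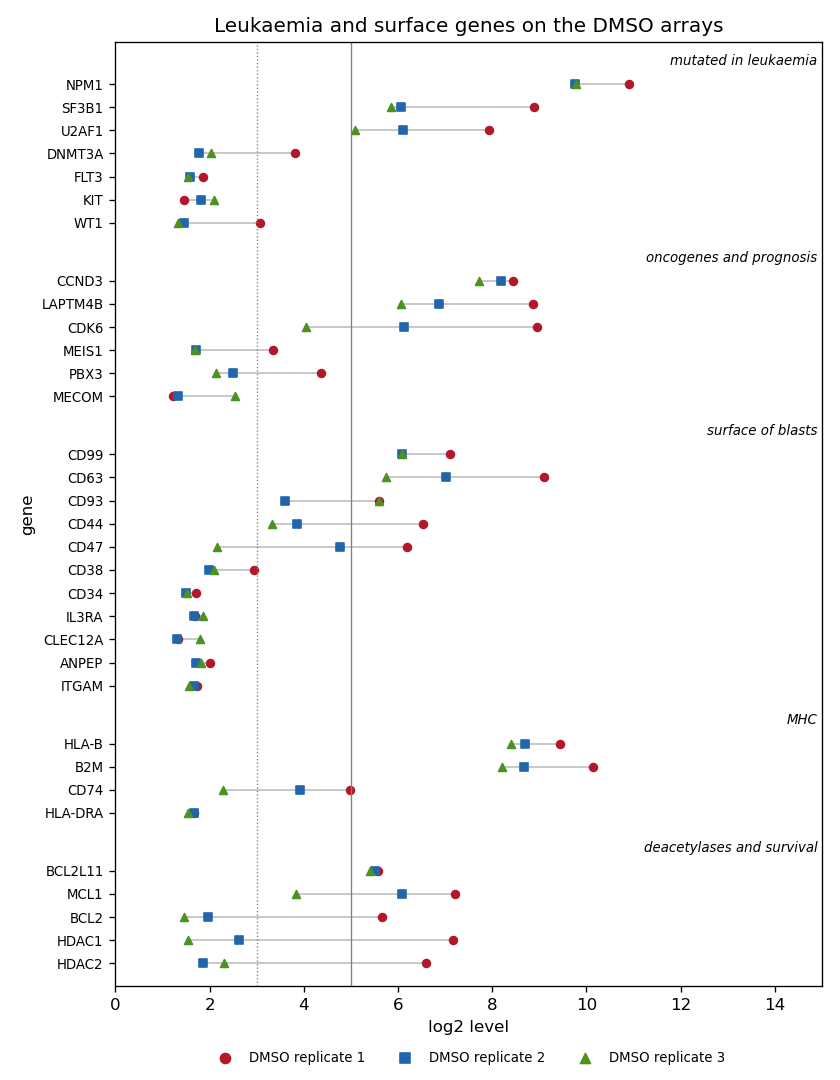
Log2 level of leukaemia, surface, MHC, survival and deacetylase genes on the 3 DMSO arrays (1 marker per array, the grey bar spans them). NPM1, CCND3, HLA-B and B2M lay above log2 5 (solid line) on every array, CD34, FLT3, KIT and HLA-DRA below log2 3 (dotted line), and HDAC1 and HDAC2 crossed both lines.

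Of 36 genes of the cell cycle and proliferation 5 were high, 13.9% against 2.09% of all genes. Like the genes at large they followed the arrays. Above log2 5 lay 28 on replicate 1, 12 on replicate 2 and 5 on replicate 3. Over all 19775 genes these counts were 2624, 737 and 468. On replicates 1 and 2 alone 12 of the 36 passed, where the share over all genes was 3.5%. The high ones were TUBA1B, CCND3, AURKA, a mitotic kinase, at 7.27, 7.36 and 6.18, TUBB, and TYMS, thymidylate synthase, at 9.74, 6.60 and 5.95. MKI67, the proliferation antigen, lay at 7.03, 2.34 and 1.99 and TOP2A at 8.39, 2.95 and 2.34. RRM2, the ribonucleotide reductase subunit of S phase, lay at 8.81, 5.86 and 1.94 and RRM1 at 8.81, 3.18 and 2.64. Chosen after their values were seen, PTTG1, ZWINT and PCLAF were high, at 8.59, 7.51 and 6.64, 9.29, 6.61 and 6.26 and 9.34, 6.81 and 7.22.

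In the BCL2 family 1 of 17 genes was high, 5.88% against 2.09% of all genes. This was BCL2L11, which codes for the pro-apoptotic protein BIM, at 5.58, 5.52 and 5.40. Without replicate 3 the family had 2 high genes. BCL2L11 was lost after quantile normalisation, at 3.94, 6.02 and 6.64. It had 7 probe sets, of which 1 was high and 4 lay below log2 3 on all 3 arrays. Another of them lay at 6.82, 3.32 and 2.99. MCL1, the survival protein of myeloid cells, lay at 7.20, 6.08 and 3.84, and BCL2 at 5.66, 1.96 and 1.45. BAX, BAD and PMAIP1 were low. HDAC1 and HDAC2, which are among the deacetylases that Vorinostat inhibits, were array-dependent, at 7.16, 2.63 and 1.55 and 6.59, 1.87 and 2.31. Of 18 deacetylase genes none was high and 10 were low, 55.6% against 70.2% of all genes. Without replicate 1 there were 15 low ones, where the share over all genes was 85.3%. All 15 measured hedgehog pathway genes were low, SMO and GLI1 among them, where the share over all genes was 70.2%.

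In the iron and redox list 2 of 20 genes were high, 10.0% against 2.09% of all genes. The count was 4 and 5 without replicates 2 and 3 in turn. FTL, the ferritin light chain, lay at 10.50, 8.36 and 8.46, and SOD1, the copper and zinc superoxide dismutase, at 8.89, 7.15 and 7.05. HMOX1, NQO1 and SOD2 were low. TXN, GSTP1 and PRDX2 were array-dependent.

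Most of the array-dependent genes shared a pattern. Of the 1435, 858 lay above log2 5 on replicate 1 and below log2 3 on both others, and 462 lay between these levels on replicate 2 and below log2 3 on replicate 3. Leaving out replicate 1 left 56 genes above log2 5 on one array and below log2 3 on the other. The widest ranges of all genes belonged to CYCS, cytochrome c, at 9.71, 4.94 and 2.30, NAP1L1 at 10.27, 6.20 and 3.0, SH3BGRL at 9.06, 3.96 and 1.83 and ANP32E at 8.95, 5.97 and 1.77. PPP1CC, LAMP5, OGFRL1, COX7B, RRM2 and EIF3L completed the 10 genes with the widest ranges, and these 6 lay between 8.81 and 9.58 on replicate 1 and between 1.71 and 2.46 on replicate 3.

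A small set ran against this pattern. Of the 414 high genes 13 had their lowest value on replicate 1, among them HNRNPK, an RNA-binding protein, at 7.64, 8.04 and 8.02, PNPLA2, a triglyceride lipase, at 7.45, 8.15 and 8.0, and SPATA24, at 5.04, 7.51 and 7.33. A further 13 genes lay above log2 5 on replicates 2 and 3 but not on replicate 1. FOLR1, a folate receptor, was one of them, at 4.41, 6.05 and 7.30. So was GNAO1, a G protein subunit best known from neurons, at 3.37, 6.21 and 5.75. These genes were chosen after their values were seen.

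The probe set behind a gene mattered as well. Of the 414 high genes 310 had more than 1 probe set, and in 17 of these every probe set lay above log2 5 on all 3 arrays. In 202 at least 1 probe set lay below log2 3 on all 3. Genes with 1 probe set were high in 1.12% of cases, those with 2 in 2.51% and those with 3 or more in 3.34%. Each gene was represented by its probe set with the highest mean, and what set these shares was not tested. Of the 414, 85 were read by a probe set whose suffix marks probes that can bind other sequences (_x). A further 185 were read by one whose probes match several transcripts, often of 1 gene (_s).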

How the data were processed

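The authors imported the array files into Partek Genomics Suite and deposited 1 table of log2 values per probe set. MAS5 and RMA are both listed in the notes of the submitters, without saying which made the values. That the scale is log2 was read from the values, and no normalisation was added. The 62 control probe sets were left out of the gene level, as were 1801 probe sets naming several genes and 11721 unnamed here. Symbols were updated by gene identifier through RefSeq names. The number of arrays and their signal limit the precision, and no test was run. The members, the 43 gene lists and the levels of 5 and 3 were chosen with earlier results of these data known. Named genes are the 30 with the highest mean rank, up to 6 high and 6 low members and up to 3 array-dependent members of a list, a set of 30 leukaemia genes, and the 10 with the widest range. Other names, such as HK2, CD4, CD93, PTPRC, TBP, POLR2A, MKI67, CDK6, IL17RA and TAP1, were chosen after their values were seen. Levels, normalisation, probe set rule and arrays were varied. The functions were tested on simulated data. Python 3.11.15, pandas 2.3.3 and numpy 2.4.6 were used.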

Additional observations from a re-analysis of the deposited data

How the results depend on the processing

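The count of 414 high genes rested on the level, and it became 759 with the level at 4 and 235 at 6. With the median over a gene's probe sets 170 genes passed, with plain probe sets alone 142, and 1035 genes lay in the top 10% of every array. Without 1 array in turn the count, which can then only rise, ran from 427 to 696, the last without replicate 3. Quantile normalisation of the 3 arrays gave 560 genes, 366 of them shared with the 414. Low genes numbered 8751 with the level at 2, and the other counts of low genes lay between 13062 and 16875, the last without replicate 1. The 1435 array-dependent genes became 2575 with the high level at 4, 685 with it at 6, 607 with the low level at 2, 330 after quantile normalisation, 756 with the median over probe sets and 902 with plain probe sets. Without 1 array in turn they numbered 56 to 1369, the lowest without replicate 1. Of the 779 listed genes 121 were high, and 68 with the median over probe sets, 37 with plain probe sets and 190 by the top 10%. The mean rank correlation of 0.614 was 0.524 for replicates 1 and 3 and 0.743 within the high genes. The causes were not tested beyond what each setting's own construction fixes. After quantile normalisation 6 of the 121 listed high genes were no longer high, namely BCL2L11, HK1, LYL1, MYB, PBX2 and SDHC, each below log2 5 on replicate 1 alone. Under it IRF8 lay at 8.30, 8.21 and 8.08, CTSG at 8.21, 8.51 and 8.76, and NPM1 at 9.40, 10.42 and 10.51. No paired analysis was possible because the 3 arrays form 1 group and no result comes from a test.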
